A study of Homo sapiens with 8 samples.

Results

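DLD1 is an established human colorectal adenocarcinoma cell line. The comparison described here is the response of these cells to trichostatin A (TSA), a small-molecule inhibitor of histone deacetylases (HDACs), while UHRF1, a protein that helps to maintain DNA methylation, was intact. It took 4 of the 8 arrays of the series, chosen by their labels: 2 arrays of cells transfected with a control siRNA (siCONT) and given no TSA (mock, ethanol as the vehicle), and 2 arrays of siCONT cells given 300 nM TSA. In both groups the cells had carried the siRNA for 48 h before the agent and were incubated for a further 24 h with or without TSA. The other 4 arrays held cells transfected with either of a pair of siRNAs against UHRF1, with and without TSA, and are used only to share the estimate of spread and to set the siCONT response beside that of UHRF1-depleted cells. The model is 1 cell line, 1 dose and 1 time.

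Histone deacetylases remove acetyl groups from lysines of histone tails and of many other proteins, mostly as subunits of corepressor complexes such as SIN3, NuRD and CoREST. TSA chelates the zinc ion of the class I, II and IV enzymes, acetylated histones accumulate, and many genes change their transcription in either direction. In cancer cell lines the class is known for cell cycle arrest, differentiation and the induction of genes that are silent in the tissue of origin.

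Total RNA (100 ng) was labelled with Cy3 and hybridised to 1-colour Agilent 60-mer arrays. A level below is the log2 processed signal of a probe minus the array's 75th percentile, so that 0 is the level of the 75th-percentile probe of the same array and a difference of 1 is a 2-fold difference in normalised signal. Levels of different probes were not set against each other. The scanner software flagged 43.3% to 46.9% of 50599 probes on the 4 siCONT arrays as clearly brighter than their background. All 8 arrays lay on 1 slide, with every mock array in slide row 1 and every TSA array in row 2, so TSA and slide row cannot be told apart. Within each siCONT group the 2 arrays were apart by close to the noise between repeated spots. The ratio of the root-mean-square difference to that noise was 1.16 for mock and 1.06 for TSA. It was 12.8 and 10.3 for the 2 different siRNAs of the depleted groups. No SD is therefore given for the 2 siCONT arrays of a group. The fit to 8 arrays still enters each of them as a replicate. Only the fit with the 2 arrays averaged counts them as 1 sample a group. Adjusted p-values and list counts below are from the fit to 8 arrays unless said otherwise. The total counts of calls and the p-values of the largest changes are given from the fit to 8 arrays and again with the 2 siCONT arrays of a group averaged. In the fit to 8 arrays the p-values measure a spread pooled over all 4 groups. It includes the difference between the 2 UHRF1 siRNAs of each depleted group, which was the larger part. With the siCONT arrays averaged, the whole residual spread is that between the UHRF1 siRNAs. The averaged p-values thus hold no spread between siCONT arrays, and that spread may itself be technical. In bulk RNA, fewer cells that express a gene and less of its RNA per cell cannot be told apart.

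The labelled cell type was checked first. All 12 markers of a colon carcinoma line were above background on all 4 arrays, although GPA33, LGALS4 and VIL1 among them fell with TSA. Of 16 probed markers of other cell types, 2 were above background on each mock array and 6 and 7 on the TSA arrays, and their summed level, on the log2 scale, was 0.30 and 0.19 with mock and 1.60 on each TSA array. Of these, VWF, COL1A1 and HBB rose, while the defining fibroblast, leukocyte and liver markers COL1A2, COL3A1, DCN, LUM, PTPRC, CD3E and ALB were not well above background on any of the 4 arrays.

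TSA and mock arrays differed at many probes, in both directions. In 1 group or the other, 23239 probes exceeded background on each of the 2 arrays and were tested with limma. Of these, 4317 (18.6%) were called, which required 2-fold or more and an adjusted p below 0.05, 2408 higher (10.4%) and 1909 lower (8.21%). With the siCONT arrays averaged, 362 of 23233 probes (1.56%) passed, 293 higher (1.26%) and 69 lower (0.297%), all 362 of them among the 4317. At an unadjusted p under 0.05 and 2-fold, 3893 passed that second test. By gene, with 1 probe for each, 1342 of 13831 tested genes rose (9.70%) and 1208 fell (8.73%), and the median change over all tested genes was −0.11. The fit was also repeated 4 times with 1 siCONT array left out each time (the leave-one-out fits), and between 3175 and 3396 probes were then called. Where a named gene lost its call in these fits, this is said beside it. Leaving out a siCONT array also gives the depleted arrays more weight in the spread. A lost call therefore need not mean that the change hangs on 1 array. The change of ASNS, for example, stayed between 2.25 and 2.28 in these fits, whereas that of CRYAB ran from 1.16 to 2.27. Of 193 named genes that were called, 144 lost their call in the averaged fit. Of the 40 gene lists below, 21 had no call by limma when averaged, among them those of S phase, G2 and M phase, fatty acid synthesis, PPAR targets, heat shock, interferon, antigen presentation and HDAC corepressors. In these 21 lists 116 of 585 tested members were called from 8 arrays, and 98 passed an unadjusted p under 0.05 and 2-fold when averaged. No list had more than 4 averaged calls. Normexp is a background correction fitted to the mean signal and local background of each spot, and a chosen constant of 50 was then added to every signal. Other constants were not tried. With normexp 45 named genes lost their call. The value is given beside those whose loss is not already stated through the leave-one-out fits. The shares of all tested probes and genes called, and the median over all tested genes, are the background against which each gene list below is to be read.

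More rises than falls were large. Among called probes above background on all 4 arrays, 282 rose and 143 fell by 4-fold or more, and 18 rose and 4 fell by 16-fold or more. Detection differed as well: 1451 probes were above background on both TSA arrays and on neither mock array, against 281 the other way round. The share of rises among the calls, 55.8%, depended on how arrays were scaled and on the filter. It was 66.2% when the 75th percentile was taken over detected probes only, 44.9% among probes above background on all 4 arrays, and 80.9% with the siCONT arrays averaged.

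**Figure D1:**
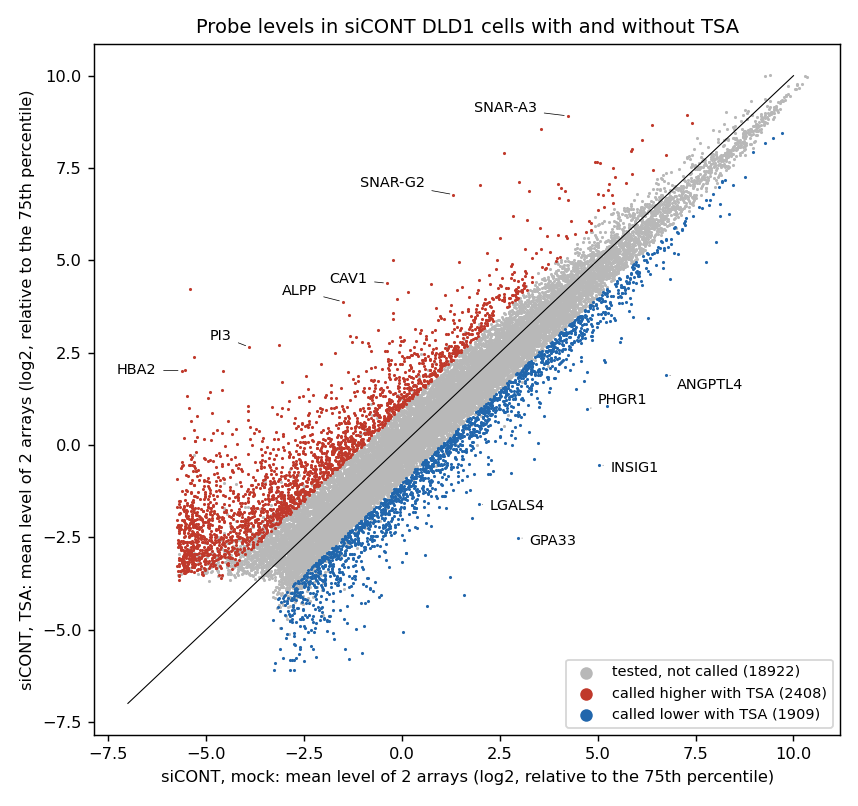
Mean level of each tested probe on the 2 mock arrays (horizontal axis, log2 signal relative to the array's 75th percentile) against its mean on the 2 TSA arrays (vertical axis, same unit), with called probes coloured by direction. The 2408 called higher lie above the diagonal mainly where the mock level is low, and the 1909 called lower lie below it.

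Of the 12 largest rises of probes measured on all 4 arrays, 6 belonged to the snaR family, short noncoding RNAs transcribed by RNA polymerase III that are found in African great apes and bind the double-stranded RNA-binding protein NF90. The 60-mers of the 6 probes that rose more than 4-fold from a measured mock level are shown because they carry this result and because they are close copies. In the lines after the first, capitals mark the longest run of bases shared with the SNAR-A3 probe.
SNAR-A3: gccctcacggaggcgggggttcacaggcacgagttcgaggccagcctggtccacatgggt
SNAR-B2: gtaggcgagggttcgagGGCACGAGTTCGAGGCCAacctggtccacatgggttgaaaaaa
SNAR-D: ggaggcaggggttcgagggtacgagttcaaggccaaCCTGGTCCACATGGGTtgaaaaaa
SNAR-F: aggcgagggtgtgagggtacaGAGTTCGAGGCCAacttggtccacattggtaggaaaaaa
SNAR-G2: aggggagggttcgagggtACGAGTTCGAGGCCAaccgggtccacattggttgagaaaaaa
SNAR-H: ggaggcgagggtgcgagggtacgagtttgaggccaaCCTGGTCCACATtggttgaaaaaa
In hg19 the SNAR-A3 probe lies on chromosome 19, 48427077 to 48427136, SNAR-B2 on chromosome 19, 50637012 to 50637071, SNAR-D on chromosome 19, 50643469 to 50643528, SNAR-F on chromosome 19, 51108271 to 51108330, SNAR-G2 on chromosome 19, 49534934 to 49534993 and SNAR-H on chromosome 2, 78182044 to 78182103, each annotated to the noncoding RNA it is named for.

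The SNAR-G2 level was 1.32 and 1.30 on the mock arrays and 6.79 and 6.77 on the TSA arrays, a rise of 5.47 (SE 0.59, adjusted p = 0.00165). SNAR-A3 went from 4.21 and 4.26 to 8.85 and 8.97, a rise of 4.68 (SE 0.58, adjusted p = 0.00239). In both, the mock and TSA arrays lay far apart and the 2 arrays of a group close together. SNAR-B2, SNAR-D, SNAR-F and SNAR-H rose by between 5.02 and 5.29. In the averaged fit the adjusted p of the 6 probes was between 0.0674 and 0.0821, so none was called there. The runs shared with SNAR-A3 were 12 to 18 bases long, and these probes may cross-hybridise, so the 6 rises are not independent. A probe for SNAR-G1 that shares 10 bases was above background with TSA only, with −3.68 and −3.59 on the mock arrays and −0.51 and −0.43 on the TSA arrays. Probes for SNAR-B1, SNAR-C3 and SNAR-E and the second SNAR-G1 probe, which share only 5 or 6 bases with it on either strand, were not above background in either group. Nor was the SNAR-I probe, which shares 5 bases on the probe strand and 14 on its other strand, and SNAR-C4 changed by −0.06 (SE 0.34, adjusted p = 0.898).

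Outside this family the largest rises from a measured mock level were in ALPP, ARHGDIB, CAV1, SCEL, CRYM and MIR1915HG. ALPP, the placental alkaline phosphatase, had levels of −1.49 and −1.53 on the mock arrays and 3.88 and 3.88 on the TSA arrays, a rise of 5.39 (SE 0.25, adjusted p = 0.000228; 0.0324 with siCONT averaged). Its probe lies on chromosome 2, 233247198 to 233247257 (hg19). ARHGDIB, an inhibitor of small GTPase cycling that is abundant in blood cells, went from −1.33 and −1.38 to 3.48 and 3.56 (4.87, SE 0.32, adjusted p = 0.000418; 0.0383 averaged). CAV1, the coat protein of caveolae, went from −0.40 and −0.36 to 4.37 and 4.39 (4.76, SE 0.14, adjusted p = 0.000117; 0.0324 averaged), and its other tested probe rose by 3.72. SCEL, a precursor of the cornified envelope of squamous epithelia, went from −1.27 and −1.38 to 2.94 and 2.97 (4.28, SE 0.31, adjusted p = 0.000556; 0.0461 averaged). CRYM, a thyroid hormone-binding protein, went from −1.98 and −2.14 to 2.23 and 2.14 (4.25, SE 0.41, adjusted p = 0.00111), with an averaged adjusted p of 0.0572. The noncoding host RNA MIR1915HG rose by 4.19 (SE 0.16, adjusted p = 0.000164; 0.0324 averaged). None of these genes had overlapping groups.

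Many further genes were dark on the mock arrays and clearly lit with TSA, and for these only a lower bound on the fold can be given. It was set by the dimmest probe above background on each mock array or by the probe's own signal, whichever was higher. The bound holds for the scanner's processed signals only: with normexp the fold of all 44 called named genes with a bound lay under it, and 24 of the 44 lost their call. PI3, the elastase inhibitor elafin of squamous and inflamed epithelia, had levels of −3.55 and −4.27 on the mock arrays and 2.63 and 2.67 on the TSA arrays, at least 66.1-fold (adjusted p = 0.000228). HBA2, an alpha-globin, went from −5.59 and −5.66 to 2.02 and 2.01, at least 42.5-fold (adjusted p = 0.000499), and its 2 other probes rose as well. WFDC21P, a transcribed pseudogene of the whey acidic protein family, rose at least 42-fold (adjusted p = 0.000596), and its second probe rose too. MMP1, the interstitial collagenase, went from −4.70 and −4.47 to 1.49 and 1.51, at least 29.8-fold (adjusted p = 0.00042). RGS9, a regulator of G-protein signalling in retina and striatum, rose at least 28.4-fold (adjusted p = 0.00111). CLIP4, a microtubule-binding protein, rose at least 26.1-fold (adjusted p = 0.000117) and did so with all 3 of its probes. CYP1A1, the aryl hydrocarbon-responsive cytochrome, rose at least 13.9-fold (adjusted p = 0.000191). These genes were also called with the siCONT arrays averaged, with adjusted p between 0.0324 and 0.0476. KRTAP3-1, a hair keratin-associated protein measured on 1 of the 2 mock arrays, went from −2.67 and −3.61 to 2.70 and 2.74 (adjusted p = 0.000513; 0.0359 averaged). NEK10 and PRICKLE1 rose at least 25.6-fold (adjusted p = 0.00492) and at least 21.7-fold (adjusted p = 0.0493) but were not called when averaged, with adjusted p of 0.113 and 0.327. PRICKLE1 also lost its call in every leave-one-out fit, with adjusted p up to 0.164.

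The largest falls were in regulators of lipid metabolism and in genes of intestinal epithelium. INSIG1, which holds the sterol sensor SCAP in the endoplasmic reticulum and is itself a sterol-responsive gene, had levels of 5.03 and 5.06 on the mock arrays and −0.47 and −0.61 on the TSA arrays. It fell by 5.59 (SE 0.95, adjusted p = 0.00663), with an adjusted p of 0.132 averaged. GPA33, a surface antigen of intestinal epithelium, went from 2.93 and 3.02 to −2.28 and −2.75, a change of −5.49 (SE 0.35, adjusted p = 0.000414; 0.0359 averaged). ANGPTL4, a secreted inhibitor of lipoprotein lipase, went from 6.75 and 6.77 to 1.92 and 1.90 (−4.85, SE 0.63, adjusted p = 0.00275; 0.0883 averaged). The groups of each were far apart. HGD, an enzyme of tyrosine breakdown, fell by 3.79 (averaged adjusted p 0.137), and PHGR1, a small protein of gut epithelium, fell by 3.76 (0.0863 averaged). PFKFB4, which sets fructose 2,6-bisphosphate and so glycolytic flux, went from 3.39 and 3.35 to −0.35 and −0.43 (−3.76, adjusted p = 0.000688; 0.0476 averaged). LCN15, a lipocalin (−3.55), the retinal reductase gene DHRS3 (−3.42) and CISH, a feedback inhibitor of cytokine receptors (−3.15), fell as well. Their averaged adjusted p were 0.0324, 0.0359 and 0.0455.

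Several falling genes went dark with TSA. PIGZ, a mannosyltransferase of GPI anchor synthesis, went from 0.05 and 0.00 to −4.41 and −5.75, at least 13.6-fold (adjusted p = 0.00552), with an averaged adjusted p of 0.101. ACSL6, a long-chain acyl-CoA synthetase, fell at least 8.56-fold (adjusted p = 0.00201), as did its second probe, and ARSL, a Golgi sulfatase, fell at least 6.84-fold (adjusted p = 0.00154). B3GNT4, a glycan-extending enzyme, fell at least 6.47-fold (adjusted p = 0.00196). These 3 were called when averaged, at 0.0462, 0.0359 and 0.0359. The noncoding LINC02649, RGS12, SGK2 and SLCO2B1 fell between 6.37- and 7.79-fold at least, with averaged adjusted p between 0.065 and 0.301. SLCO2B1 lost its call in every leave-one-out fit, with adjusted p up to 0.168. LFNG, a fringe glycosyltransferase that modifies Notch receptors, was measured on 1 of the 2 TSA arrays and went from 1.19 and 1.27 to −3.94 and −3.23 (adjusted p = 0.00054; 0.0359 averaged), while its other tested probe changed by −0.56 and was not called, so the 2 probes of LFNG disagreed.

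**Figure D2:**
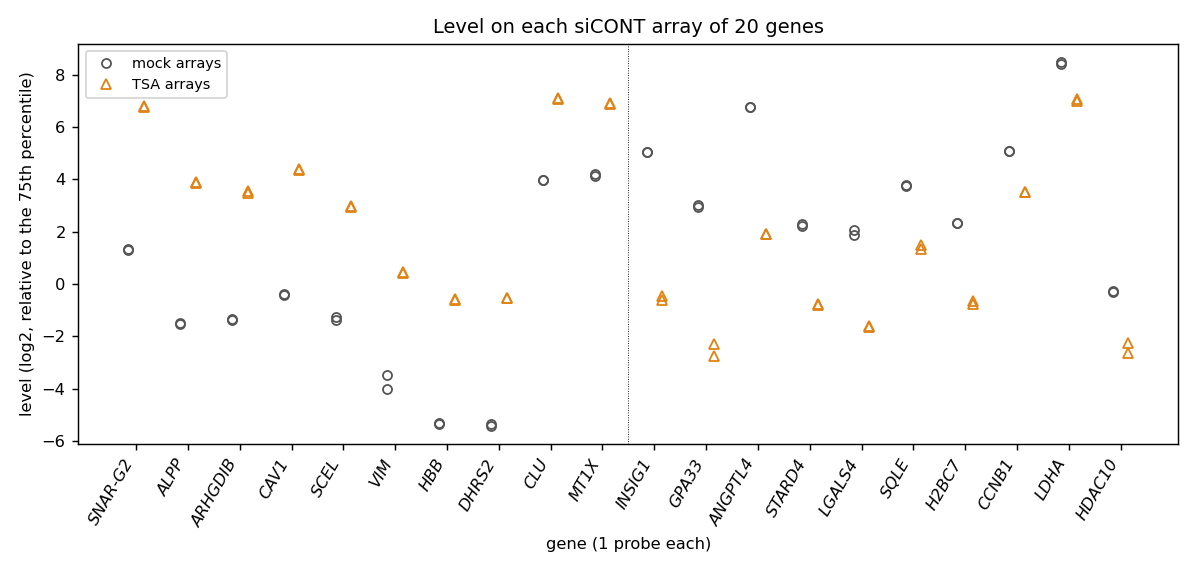
Level on each of the 2 mock and 2 TSA arrays (log2 signal relative to the array's 75th percentile) for 10 genes that rose and 10 that fell, 1 point an array. The 2 points of a group nearly coincide for most genes, and the mock and TSA points of each gene do not overlap.

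Among the transcripts of the inhibitor's own targets, 1 of 10 tested HDAC genes rose and 1 fell, with a median change of −0.13. This was 20% called, against 18.6% of all tested probes. HDAC10, a class IIb deacetylase of polyamines, had levels of −0.25 and −0.31 on the mock arrays and −2.61 and −2.26 on the TSA arrays, a change of −2.16 (SE 0.16, adjusted p = 0.000546; 0.0483 averaged). HDAC4, a class IIa enzyme, rose by 1.06 (adjusted p = 0.0122) but lost its call in every leave-one-out fit (adjusted p up to 0.0721). HDAC3, the catalytic subunit of the NCoR complex, changed by −0.95 (adjusted p = 0.00826), under the 2-fold minimum. HDAC1 changed by −0.10 (adjusted p = 0.764) and HDAC2 by 0.29 (adjusted p = 0.285), and HDAC9 was not above background. Of 25 corepressor subunits 2 fell (8%) and none rose (highest change 0.64), with a median of −0.30. The 2 falls were in RCOR2 of CoREST, −2.09 (adjusted p = 0.00296), and the NuRD helicase CHD3, −1.99 (adjusted p = 0.000722). Of 19 acetyltransferases and bromodomain readers 1 rose and 2 fell (15.8%), and the acetyltransferase KAT8 fell by 1.64 (adjusted p = 0.000414). KAT2A fell by 1.02 and lost its call without TSA array 2 or mock array 2, where its change was under 2-fold.

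Of 17 tested genes of the DNA methylation machinery 1 fell (5.88%, against 18.6% of all tested probes called). UHRF1 itself had levels of 1.98 and 2.01 on the mock arrays and 1.04 and 1.01 on the TSA arrays at its brighter probe, a difference of −0.97 (SE 0.22, adjusted p = 0.0175; 0.279 averaged), just under the 2-fold minimum. The maintenance methyltransferase DNMT1 differed by −0.73 (adjusted p = 0.00549) and the de novo enzyme DNMT3B by −0.87 (adjusted p = 0.00399), both named after their values were seen and both under 2-fold. Of 26 Polycomb and H3K9 methylation genes 2 rose and 3 fell (19.2%), with a median of −0.31. BMI1, a PRC1 subunit, went from −0.41 and −0.43 to 2.56 and 2.55 (2.98, SE 0.18, adjusted p = 0.000397), and CBX6, a PRC1 chromobox protein, rose by 1.38 (adjusted p = 0.00202). EHMT2, which methylates H3K9 in euchromatin, fell by 1.54 (adjusted p = 0.000609) and CBX8 by 1.25 (adjusted p = 0.00571; −0.75, not called, with normexp). The heterochromatin protein gene CBX5 fell by 1.25 and lost its call in every leave-one-out fit (adjusted p up to 0.0587).

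Genes often used as markers of HDAC inhibition responded unevenly. Of 21 listed, 9 rose and 3 fell, with a median change of 0.34, and 3 rises remained called when averaged. DHRS2, a mitochondrial reductase, went from −5.33 and −5.41 to −0.52 and −0.54, at least 7.28-fold (adjusted p = 0.000117). The secreted chaperone CLU rose by 3.11 (SE 0.13, adjusted p = 0.000191), from 3.97 and 3.98 to 7.09 and 7.07. RGS2 rose by 2.61 (adjusted p = 0.00271). TXNIP, the thioredoxin inhibitor, went down from 5.58 and 5.63 to 2.94 and 2.85 (−2.71, adjusted p = 0.00146), and TNFSF10, the death ligand TRAIL, fell to below background but lost its call in every leave-one-out fit (adjusted p up to 0.132). CDKN1A, the p21 inhibitor of cyclin-dependent kinases, had levels of −2.99 and −2.54 on the mock arrays and −3.05 and −2.93 on the TSA arrays, a difference of −0.23 (SE 0.76, adjusted p = 0.831), within the spread of the fit. All 4 levels of CDKN1A were under −2, in the dimmest class of tested probes. With an SE of 0.76, a 2-fold change of this gene could not be told from none. In UHRF1-depleted cells the change of CDKN1A was 2.26 (adjusted p = 0.0587). The promoter of CDKN1A is shown because the gene is the usual example of TSA induction through Sp1 sites. It covers the 250 bases before the gene start in RefSeq (chr6:36678464-36678713, plus strand, GRCh38.p14), with GC boxes (GGGCGG, either strand) in capitals.
CDKN1A: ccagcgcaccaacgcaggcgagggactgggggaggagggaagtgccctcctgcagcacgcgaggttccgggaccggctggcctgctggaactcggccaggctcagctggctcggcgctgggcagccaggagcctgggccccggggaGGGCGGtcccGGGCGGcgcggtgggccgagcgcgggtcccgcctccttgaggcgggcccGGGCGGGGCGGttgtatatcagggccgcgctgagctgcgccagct
It held 4 such boxes, 104, 94, 45 and 40 bases before the start. By the same search, a GC box was present in 68.1% of promoters of tested genes, in 59.9% of those of genes called higher and in 70.2% of those called lower.

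Other regulators of the G1 phase moved in both directions. Of 19 CDK inhibitors and G1 cyclins 2 rose and 3 fell (26.3%, against 18.6% of all tested probes called), with a median of −0.23. CCND2, a G1 cyclin, went from −5.31 and −5.37 to −1.96 and −2.22, at least 2.47-fold (adjusted p = 0.00129; 0.57, not called, with normexp). CDKN2B, the p15 inhibitor, rose at least 3.53-fold (adjusted p = 0.0198; 0.57, not called, with normexp) but lost its call without TSA array 1, TSA array 2 or mock array 1 (adjusted p up to 0.104). The inhibitors CDKN2D (p19) and CDKN1C (p57) fell by 1.81 (adjusted p = 0.0061) and 1.44 (adjusted p = 0.00262). The kinase CDK2 fell by 1.14 and lost its call without TSA array 2 (adjusted p up to 0.0525).

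The cholesterol pathway fell along most of its length. Sterol synthesis is controlled by SREBF2, a transcription factor that is released from the endoplasmic reticulum when sterol is low and then switches on nearly every enzyme from HMG-CoA to cholesterol. Of 28 tested genes of this pathway 22 fell and none rose (highest change 0.25), with a median change of −1.54 against −0.11 over all tested genes. In every leave-one-out fit 21 of the 22 calls held, and 4 were called when averaged. STARD4, a cytosolic sterol carrier, went from 2.28 and 2.24 to −0.76 and −0.81 (−3.05, SE 0.18, adjusted p = 0.000327; 0.0449 averaged). The C4-methylsterol oxidase MSMO1 fell by 2.84 (SE 0.35, adjusted p = 0.00223; 0.0883 averaged).

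Further steps of the pathway, named after their values were seen, lay along its whole length. HMGCS1, which makes HMG-CoA, changed by −1.80 (SE 0.23, adjusted p = 0.00258). The mevalonate kinase MVK changed by −2.30 (SE 0.15, adjusted p = 0.000414) and the farnesyl diphosphate synthase FDPS by −1.87 (SE 0.11, adjusted p = 0.000327). SQLE, the squalene epoxidase, changed by −2.34 (SE 0.13, adjusted p = 0.000304), LSS, the lanosterol cyclase, by −1.48 (SE 0.15, adjusted p = 0.00122), and DHCR7, the last enzyme before cholesterol, by −2.42 (SE 0.14, adjusted p = 0.000323). The factor itself, SREBF2, changed by −1.52 (SE 0.23, adjusted p = 0.00447), and SREBF1 by −1.33 (SE 0.12, adjusted p = 0.000916). SCAP did not pass (−0.45, adjusted p = 0.0347), and INSIG2, at −1.01, lost its call in every leave-one-out fit (adjusted p up to 0.169).

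Promoters of INSIG1 and HMGCS1 are shown as an example each of a large and a moderate fall. The sequences are the 250 bases before the RefSeq gene start (GRCh38.p14; INSIG1 at chr7:155297628-155297877, plus strand; HMGCS1 at chr5:43313413-43313662, minus strand). Capitals mark the CCAAT box on either strand, which is bound by NF-Y and lies beside many SREBF sites.
INSIG1: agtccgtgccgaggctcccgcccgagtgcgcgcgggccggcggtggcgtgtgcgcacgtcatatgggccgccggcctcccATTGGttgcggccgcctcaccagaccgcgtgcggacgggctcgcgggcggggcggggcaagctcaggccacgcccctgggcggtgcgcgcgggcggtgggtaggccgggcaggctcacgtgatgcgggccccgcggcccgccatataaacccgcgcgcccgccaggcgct
HMGCS1: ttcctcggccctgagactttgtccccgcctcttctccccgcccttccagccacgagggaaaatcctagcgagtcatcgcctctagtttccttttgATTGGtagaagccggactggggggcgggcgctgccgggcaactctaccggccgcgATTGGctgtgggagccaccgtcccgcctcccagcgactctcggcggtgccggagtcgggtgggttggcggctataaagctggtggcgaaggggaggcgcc
INSIG1 held 1 CCAAT box, starting 170 bases before the gene, and HMGCS1 held 2, at 155 and 100 bases. A CCAAT box was present in 15 of the 21 promoters of this list that could be read (71.4%), against 35.7% of all promoters and 36.9% of those of tested genes. A GC box was present in 20 (95.2%), against 44.6% of all and 68.1% of those of tested genes. The letters CACCCCAC, one form of the sterol response element core, were present in 1 (4.76%), against 2.72% and 2.56%. These matches describe sequence only.

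Fatty acid genes that SREBF1 controls followed in part. Of 12 tested, 6 fell and 1 rose, with a median of −0.96. PNPLA3, a triglyceride lipase and acyltransferase, went from 0.10 and 0.11 to −2.59 and −3.28 (−3.04, SE 0.31, adjusted p = 0.00141; 0.0521 averaged). FASN, the fatty acid synthase, fell by 2.04 (adjusted p = 0.00652), SCD, the stearoyl-CoA desaturase, by 1.86 (adjusted p = 0.00177) and ACACA, the acetyl-CoA carboxylase, by 1.81 (adjusted p = 0.00213). FADS1, a fatty acid desaturase, rose by 1.24 and lost its call without TSA array 1, TSA array 2 or mock array 1 (adjusted p up to 0.0594). ACLY, the ATP citrate lyase, named after its value was seen, changed by 0.03 (adjusted p = 0.898). Among 17 PPAR targets and ketogenic genes 6 fell (3 or 4 in the leave-one-out fits) and 1 rose, with a median of −0.59. Besides ANGPTL4, the nuclear receptor PPARD fell by 1.60 (adjusted p = 0.00175). PDK4, a brake on pyruvate oxidation, fell as well but lost its call without TSA array 2, mock array 1 or mock array 2 (adjusted p up to 0.0982). CREB3L3, a factor of fasting liver and intestine, rose at least 3.56-fold (adjusted p = 0.00606; 0.64, not called, with normexp).

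Most histone genes of S phase fell. Replication-dependent histone genes supply the histones of S phase, lie in clusters and make mRNAs that end in a stem-loop rather than a poly(A) tail. Of 52 tested, 37 fell and none rose (highest change 0.60), with a median of −1.32 (−1.30 with genes that went dark held at their bound), and 34 of the 37 calls held when any 1 array was left out. In the averaged fit 4 were called. H2BC7 went from 2.32 and 2.32 to −0.65 and −0.75 (−3.02, SE 0.16, adjusted p = 0.000304; 0.04 averaged). The linker histone H1-5 went from 2.30 and 2.25 to −0.39 and −0.42 (−2.68, SE 0.17, adjusted p = 0.000418). H2AC16 and H2AC11 fell by 2.63 (adjusted p = 0.00074) and 2.24 (adjusted p = 0.000335). Paralogous histone genes differ at few bases, so their probes may share signal. Of 12 replacement histone genes, which are made outside S phase, 1 fell (8.33%, against 18.6% of all tested probes called). This gene, H2AX, fell by 1.00 (adjusted p = 0.0025) and lost its call without TSA array 2 or mock array 1, where its change was under 2-fold.

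Of 62 tested G2 and M phase genes, which build the spindle and drive entry into and exit from mitosis, 26 fell and none rose (highest change 0.60), with a median of −0.81. With the siCONT arrays averaged limma called none, although 21 fell at an unadjusted p under 0.05 and 2-fold. The 4 leave-one-out fits called between 13 and 16 of the list, and 13 calls held in all of them. KIF2C, a microtubule depolymerase of the kinetochore, went from 5.37 and 5.44 to 3.41 and 3.45 (−1.98, SE 0.30, adjusted p = 0.00453). PSRC1, a spindle protein, fell by 1.83 (adjusted p = 0.00177) and CDC20, the activator of the anaphase-promoting complex, by 1.62 (adjusted p = 0.00603). CCNB1, the mitotic cyclin B1, went from 5.08 and 5.09 to 3.53 and 3.53 (−1.55, adjusted p = 0.00245). Not every mitotic gene followed. CDK1 changed by −0.27 (adjusted p = 0.471) and TOP2A, the topoisomerase of mitotic chromosomes, by 0.32 (adjusted p = 0.613), both named after their values were seen. Of 57 S phase genes 8 fell and none rose (highest change 0.79), with a median of −0.51. The uracil glycosylase UNG fell by 1.65 (adjusted p = 0.00149), the histone chaperone ASF1B by 1.60 (adjusted p = 0.00268), the thymidylate synthase TYMS by 1.38 (adjusted p = 0.0019) and the helicase subunit MCM7 by 1.20 (adjusted p = 0.0017). PCNA, the replication clamp, named after its value was seen, changed by −0.30 (adjusted p = 0.21).

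Promoters of 2 mitotic genes are shown because this list shares sequence features that its choice did not use. PLK1, a mitotic kinase named for its promoter, changed by −1.01 (SE 0.23, adjusted p = 0.0171) and lost its call in every leave-one-out fit (adjusted p up to 0.0932). Both sequences cover the 250 bases before the RefSeq start on the plus strand of GRCh38.p14 (CCNB1 at chr5:69166900-69167149, PLK1 at chr16:23678639-23678888). Capitals mark the CCAAT box and the cell cycle homology region (CHR, TTTGAA), searched on both strands.
CCNB1: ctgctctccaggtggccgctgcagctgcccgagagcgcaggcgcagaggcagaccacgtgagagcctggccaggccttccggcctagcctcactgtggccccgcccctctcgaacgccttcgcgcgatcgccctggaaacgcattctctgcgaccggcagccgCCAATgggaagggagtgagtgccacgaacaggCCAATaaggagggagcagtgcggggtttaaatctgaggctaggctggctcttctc
PLK1: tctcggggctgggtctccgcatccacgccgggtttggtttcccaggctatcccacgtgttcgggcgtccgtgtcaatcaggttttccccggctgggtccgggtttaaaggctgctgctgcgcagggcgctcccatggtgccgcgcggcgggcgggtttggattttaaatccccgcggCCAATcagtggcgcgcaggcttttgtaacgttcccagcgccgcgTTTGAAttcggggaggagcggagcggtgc
CCNB1 held 2 CCAAT boxes, 87 and 55 bases before the start, and PLK1 a CCAAT box at 73 and a CHR at 29 bases. The CHR letters were present in 36 of 52 readable promoters of the list (69.2%), against 15.4% of all promoters and 9.91% of those of tested genes. CCAAT boxes were present in 73.1% of the list, against 36.9% of promoters of tested genes. Among S phase genes, the E2F letters TTTCGCGC or TTTGGCGC were present in 12 of 49 promoters (24.5%), against 1.18% of all and 2.07% of those of tested genes.

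Of 27 tested glycolysis and hypoxia genes 12 fell and none rose (highest change 0.41), with a median of −1.13, but the leave-one-out fits called between 3 and 5, 2 of the 12 calls held in all of them, and PFKFB4 alone was called when averaged. ANKRD37, a hypoxia-induced gene, fell by 2.73 and lost its call in every leave-one-out fit (adjusted p up to 0.0705). ALDOC, an aldolase, fell by 2.54 and lost its call in every leave-one-out fit (adjusted p up to 0.12). NDRG1, a hypoxia-induced gene of epithelial differentiation, fell by 1.74 and lost its call without TSA array 2 (adjusted p up to 0.0504). Of 40 oxidative phosphorylation genes 2 fell (5%, against 18.6% of all tested probes called), with a median of −0.32. The 2 were the complex I subunit gene NDUFB10 (−1.37, adjusted p = 0.000916) and cytochrome c1, CYC1 (−1.21, adjusted p = 0.00141). No change among 70 cytoplasmic ribosomal protein genes reached 2-fold. They ran from −0.83 to 0.94 around a median of −0.43, which lay between −0.47 and −0.08 over the 4 other scalings and background corrections.

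Metallothioneins rose. These small cysteine-rich proteins bind zinc and copper. Of 9 tested, 7 rose and none fell (lowest change 0.21), with a median of 2.10, all 7 calls held in every fit with 1 array left out, and 2 were called when averaged. MT1X went from 4.19 and 4.12 to 6.91 and 6.87 (2.73, SE 0.16, adjusted p = 0.000335; 0.0461 averaged). MT1B rose by 2.73 (adjusted p = 0.000384), MT1H by 2.58 (adjusted p = 0.00057) and MT1A by 2.12 (adjusted p = 0.000659). The genes are close paralogs and their probes may share signal.

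The integrated stress response, a program that spares translation and switches on amino acid supply through ATF4, rose in part. Of 20 tested genes 8 rose and none fell (lowest change −0.73), with a median of 0.84. Each leave-one-out fit called 4. With the siCONT arrays averaged limma called none, although 5 rose at an unadjusted p under 0.05 and 2-fold. CHAC1, which degrades glutathione, went from 2.21 and 2.13 to 5.18 and 5.19 (3.02, SE 0.40, adjusted p = 0.00291). SESN2, a leucine sensor upstream of mTORC1, rose by 2.08 (adjusted p = 0.000659) and SLC7A11, the cystine importer, by 2.07 (adjusted p = 0.00565). ASNS, the asparagine synthetase, rose by 2.27 and lost its call in every leave-one-out fit (adjusted p up to 0.089). ATF4 itself changed by 0.23 (adjusted p = 0.327) and DDIT3 (CHOP) by 1.25 (adjusted p = 0.137), both named after their values were seen.

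Chaperones and lysosomal genes were mixed. Of 23 heat shock and chaperone genes 2 rose and 7 fell, with a median of −0.46, and each leave-one-out fit called 4 lower. HSPE1 and HSPH1 fell by 1.59 (adjusted p = 0.000493) and 1.59 (adjusted p = 0.00286). HSPA1A rose at least 2.94-fold (adjusted p = 0.00668; 0.41, not called, with normexp) whereas HSPA1B fell by 1.90 (adjusted p = 0.00042), and as these HSP70 genes are almost identical in sequence their opposite values are uncertain. CRYAB, a small chaperone of lens and muscle, rose from below background and lost its call without TSA array 1, TSA array 2 or mock array 1 (adjusted p up to 0.126). DNAJB1 fell by 1.22 (adjusted p = 0.00128). Of 30 lysosome and autophagy genes 4 rose and 3 fell (23.3%, against 18.6% of all tested probes called), with a median of 0.26. The lysosomal channel MCOLN1 rose by 1.25 (adjusted p = 0.00617; 0.76, not called, with normexp) and the autophagosome protein gene MAP1LC3B by 1.14 (adjusted p = 0.00222). The sialidase NEU1 rose by 1.98 but lost its call in every leave-one-out fit (adjusted p up to 0.0929), and SQSTM1, the p62 cargo receptor, rose by 1.17 but lost its call without TSA array 1 (adjusted p up to 0.0505). ATG16L2, UVRAG and ULK1 fell by 1.83, 1.63 and 1.12 (adjusted p = 0.000579, 0.00139 and 0.00577), and with normexp UVRAG (−0.65) and ULK1 (−0.99) were not called.

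Genes that mark colon epithelium split, with the larger changes downward. Of 26 tested, 9 fell and 4 rose, with a median of −0.55. After GPA33 and PHGR1 came LGALS4, a gut galectin, from 1.87 and 2.05 to −1.63 and −1.59 (−3.57, SE 0.12, adjusted p = 0.000132; 0.0324 averaged), and TFF3, the goblet cell trefoil factor, which fell by 2.82 (adjusted p = 0.000414). CEACAM6, a cell adhesion antigen, rose from −1.78 and −1.42 to 0.79 and 0.99 (2.48, adjusted p = 0.00114), and CEACAM7, above background on 1 of the 2 mock arrays, by 2.19 (adjusted p = 0.00132; 0.78, not called, with normexp). TSPAN8, a tetraspanin, rose by 1.93 but lost its call in every leave-one-out fit (adjusted p up to 0.139), and CA2, a carbonic anhydrase, rose by 1.71 (adjusted p = 0.00226). CDX2, the master factor of intestine, named after its value was seen, changed by 0.07 (adjusted p = 0.846). VIL1, the brush border villin, fell by 1.42 and lost its call in every leave-one-out fit (adjusted p up to 0.111). Of 30 epithelial junction genes 3 rose and 2 fell (16.7%, against 18.6% of all tested probes called), with a median of 0.02 whose sign depended on the scaling. CLDN1 rose at least 4.34-fold (adjusted p = 0.00316; 0.61, not called, with normexp), PPL, periplakin, by 1.54 (adjusted p = 0.00717) and TJP1, the scaffold ZO-1, by 1.24 (adjusted p = 0.000796). CLDN2, a pore-forming claudin, fell by 1.88 (adjusted p = 0.0018) and TJP3 by 1.13 (adjusted p = 0.00474; −0.93, not called, with normexp). CDH1, E-cadherin, named after its value was seen, changed by 0.38 (adjusted p = 0.0471).

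Some mesenchymal genes rose. Of 21 listed, 13 passed the filter, 7 of them above background on all 4 arrays, and a gene dark with mock could pass only if TSA lit it. Of the 13, 7 rose and 2 fell, with a median of 1.09 (0.90 with genes dark on the mock arrays held at their bound), and the leave-one-out fits called 3 to 5 higher and at most 1 lower. With normexp 2 rose and 1 fell, with a median of 0.30. VIM, the intermediate filament vimentin, went from −3.45 and −4.01 to 0.41 and 0.45, at least 14.1-fold (adjusted p = 0.000451), and was the list's 1 call when averaged (0.0359). COL1A1, a fibrillar collagen chain, rose at least 3.07-fold (adjusted p = 0.00399; 0.66, not called, with normexp) and MMP9, a gelatinase, at least 3.95-fold (adjusted p = 0.000504; 0.59, not called, with normexp). TGFB2, a growth factor, rose at least 1.87-fold (adjusted p = 0.00981; 0.30, not called, with normexp) but lost its call without TSA array 1, TSA array 2 or mock array 1 (adjusted p up to 0.0608). SNAI1, a repressor of E-cadherin, fell by 1.41 but lost its call without TSA array 2, mock array 1 or mock array 2 (adjusted p up to 0.0869), and TGFBI, an extracellular adhesion protein, fell by 1.71 but lost its call in every leave-one-out fit (adjusted p up to 0.0687). FN1, SNAI2, TWIST1 and ZEB2 were not above background in either group. The markers of other cell types given above moved with this list: VWF, of endothelium, rose at least 8.03-fold (adjusted p = 0.000384) and HBB, the beta-globin, at least 7.07-fold (adjusted p = 0.000117). Their part in the list's values was not tested.

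Of 19 Wnt targets and stem cell genes 3 fell (15.8%, against 18.6% of all tested probes called), with a median of −0.52. RNF43, a feedback inhibitor of Wnt receptors, fell by 1.63 (adjusted p = 0.00142) and ASCL2, a factor of crypt stem cells, by 1.41 (adjusted p = 0.00452). EPHB3, a crypt ephrin receptor, fell by 1.54 but lost its call in every leave-one-out fit (adjusted p up to 0.104). Of 22 ERK feedback genes 2 rose and 4 fell (27.3%), with a median of 0.41, and none of the 4 falls held in any leave-one-out fit. The immediate early factors EGR1 and FOS fell by 2.93 and 2.91, but EGR1 lost its call in every leave-one-out fit (adjusted p up to 0.0601) and FOS lost its call in every leave-one-out fit (adjusted p up to 0.134). PHLDA1 fell by 2.47 and JUNB by 1.02, and PHLDA1 lost its call in every leave-one-out fit (adjusted p up to 0.0567) while JUNB lost its call in every leave-one-out fit (adjusted p up to 0.0689). DUSP4, a phosphatase of ERK, rose by 1.08 (adjusted p = 0.00315), and SPRY2 rose by 1.04 but lost its call in every leave-one-out fit (adjusted p up to 0.0874).

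Genes that belong to other tissues accounted for several of the largest rises, although most such genes stayed dark. Of 50 listed neuronal genes 20 passed the filter on dim probes, and of these 8 rose and 1 fell, with a median of 0.54. A gene dark with mock can pass only if TSA lit it, so this share is not one of all neuronal genes. VGF, a neuropeptide precursor, went from 3.01 and 2.99 to 7.17 and 7.08 (4.12, SE 0.43, adjusted p = 0.00141; 0.0649 averaged). BDNF, a neurotrophin, rose at least 3.4-fold (adjusted p = 0.002; 0.73, not called, with normexp). NRXN2, a synaptic adhesion protein, rose at least 1.96-fold (adjusted p = 0.0114; 0.26, not called, with normexp) but lost its call in every leave-one-out fit (adjusted p up to 0.0631). RAB3A, a synaptic vesicle GTPase, fell by 2.71 (adjusted p = 0.000298; 0.0397 averaged). Neurofilament, synapsin and chromogranin genes (NEFL, SYN1, CHGA) were among the 30 that stayed below the filter.

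Of 45 cancer-testis and germline genes listed, 36 had a probe and 6 passed the filter, 3 of them above background on all 4 arrays. A gene dark with mock could pass only if TSA lit it, as was so for the 2 that were called. The share called, 33.3% against 18.6% of all tested probes, is thus not one of all such genes. TEX14, of germ cell bridges, rose at least 2.97-fold (adjusted p = 0.000586; 0.63, not called, with normexp), and SPANXB1, of sperm nuclei, rose at least 1.79-fold (adjusted p = 0.0077; 0.34, not called, with normexp) but lost its call without TSA array 1 (adjusted p up to 0.0508). The other 4, MAGEA6, PAGE2, SSX2 and PRAME, changed by −0.29, −1.51, −0.20 and −0.42 and were not called. Of 25 actin and muscle-type genes 6 rose and 2 fell, with a median of 0.25. TNNT1, the slow skeletal troponin T, went from −0.06 and −0.20 to 3.96 and 3.93 (4.07, SE 0.22, adjusted p = 0.000313; 0.0359 averaged), TNNI3, the cardiac troponin I, rose at least 3.02-fold (adjusted p = 0.00435; 0.59, not called, with normexp) and MYL9, a smooth muscle light chain, at least 1.97-fold (adjusted p = 0.00757; 0.26, not called, with normexp). FLNA, filamin A, rose by 1.62 (adjusted p = 0.00294) and TPM2, a tropomyosin, fell by 1.75 (adjusted p = 0.000397). Of the 4 alkaline phosphatase genes, ALPG, the germ cell form next to ALPP, rose by 2.03 (adjusted p = 0.00111), and ALPI and ALPL were not above background. ALPP and ALPG are close paralogs and their probes may share signal.

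Immune and inflammatory lists had calls in both directions, as all tested probes did. Of 30 interferon-stimulated genes 3 rose and 4 fell (23.3%, against 18.6% of all tested probes called), with a median of 0.09. SAMD9 and IFI6 rose by 1.84 (adjusted p = 0.00131; 0.80, not called, with normexp) and 1.82 (adjusted p = 0.00307). OAS1, an RNA sensor, fell by 1.90 (adjusted p = 0.00609), IFITM2 by 1.44 (adjusted p = 0.000609) and IFITM3 by 1.26 (adjusted p = 0.000771). OASL fell by 1.67 but lost its call in every leave-one-out fit (adjusted p up to 0.137), and IFIT5 rose by 1.02 but lost its call without mock array 2, where its change was under 2-fold. Of 22 antigen presentation genes 2 rose and 3 fell (22.7%), with a median of −0.05 whose sign depended on the scaling. ULBP2, a stress ligand for natural killer cells, rose by 2.24 (adjusted p = 0.00345), and ULBP1 by 1.51 but lost its call in every leave-one-out fit (adjusted p up to 0.15). The immunoproteasome subunits PSMB10 and PSMB8 fell by 1.71 (adjusted p = 0.00409) and 1.49 (adjusted p = 0.0024), and ERAP2, a peptide trimmer, by 1.18 (adjusted p = 0.0017). Of 18 NF-kB and chemokine genes 6 rose and 2 fell, with a median of 0.37, and each leave-one-out fit called 3 higher and 1 lower. IL32, a cytokine, went from −2.62 and −2.43 to 1.33 and 1.34 (3.86, SE 0.21, adjusted p = 0.000315; 0.0359 averaged), IL18 rose by 1.67 (adjusted p = 0.00135), and IL1B fell at least 2.14-fold (adjusted p = 0.00057; −0.65, not called, with normexp). LCN2, a siderophore-binding lipocalin, rose at least 3.39-fold (adjusted p = 0.014; 0.80, not called, with normexp) but lost its call in every leave-one-out fit (adjusted p up to 0.0704), and BIRC3 rose by 1.63 but lost its call in every leave-one-out fit (adjusted p up to 0.117).

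Of 36 apoptosis regulators 1 rose, BIRC3, and 3 fell (11.1%, against 18.6% of all tested probes), with a median of 0.11. The BH3-only genes BBC3 and BID fell by 1.64 (adjusted p = 0.0045) and 1.30 (adjusted p = 0.00127). The prosurvival gene BCL2L1, named after its value was seen, changed by 0.99 (adjusted p = 0.00218), at the edge of the 2-fold minimum. Of 23 p53 targets 4 rose and 4 fell (34.8%), with a median of −0.15; DLD1 carries mutant p53. TP53INP1, an autophagy and stress gene, rose at least 4.6-fold (adjusted p = 0.00707; 0.64, not called, with normexp), BTG2, an antiproliferative gene, fell by 2.57 (adjusted p = 0.000262; 0.0455 averaged) and DDB2, a damage sensor, by 1.45 (adjusted p = 0.00338). AEN, ZMAT3 and PHLDA3 were called as well, but AEN lost its call without TSA array 1, TSA array 2 or mock array 1 (adjusted p up to 0.0617), ZMAT3 lost its call in every leave-one-out fit (adjusted p up to 0.0576) and PHLDA3 lost its call in every leave-one-out fit (adjusted p up to 0.112). Of 21 transporters 4 rose and 4 fell, with a median of 0.30 (0.13 with dark genes at their bound). The drug exporter ABCC2 (MRP2) went from −3.19 and −3.14 to 0.19 and 0.10 (3.31, SE 0.20, adjusted p = 0.000347; 0.0419 averaged) and ABCB1 (P-glycoprotein) rose by 2.40 (adjusted p = 0.00212), while ABCC3 fell by 1.86 (adjusted p = 0.002). ABCG2, above background on 1 mock array, went from −2.85 and −3.15 to −0.94 and −1.19 (adjusted p = 0.0048; 0.58, not called, with normexp). The creatine importer SLC6A8 fell by 2.06 but lost its call in every leave-one-out fit (adjusted p up to 0.104).

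Genes that are methylated in colorectal cancer and that the study followed were mostly dark with and without TSA. Of the 10 silenced genes it measured, 7 (DKK1, GATA4, GATA5, SFRP1, SFRP2, SFRP5 and UCHL1) were not well above background in either group and the other 3 gave no call. TIMP3, an inhibitor of metalloproteinases, went from −5.46 and −5.36 to −2.80 and −2.78 (adjusted p = 0.116). NEURL1 changed by −0.02 (adjusted p = 0.938). Of 7 marker genes of the CpG island methylator phenotype 4 passed the filter and 2 rose, CACNA1G, a calcium channel, at least 2.97-fold (adjusted p = 0.0032; 0.55, not called, with normexp), and IGF2, a fetal growth factor, by 2.11 (SE 0.12, adjusted p = 0.000313; 0.0492 averaged). A gene dark with mock could pass the filter only if TSA lit it, as was so for CACNA1G. The 2 calls among 4 tested (50%, against 18.6% of all tested probes) are thus not a share of all marker genes. CDKN2A (p16) and SOCS1 changed by −0.41 (adjusted p = 0.0774) and 0.60 (adjusted p = 0.0811). NEUROG1 and RUNX3 were not above background on any of the 4 arrays, and CRABP1 passed on 1 array only. Apart from RUNX3 as a methylator marker, which was added here, the study followed these genes in its own cells, so their counts are not independent evidence.

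**Figure D3:**
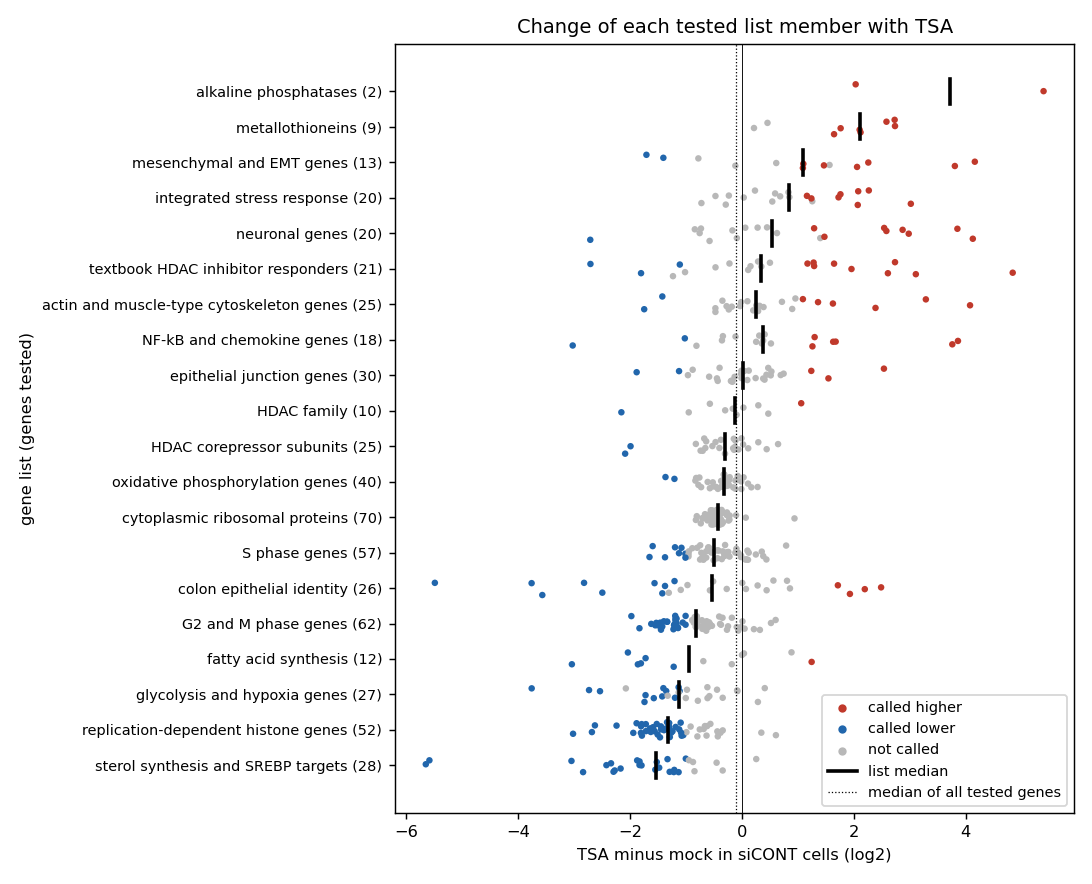
Change of each tested gene (TSA minus mock, log2 levels, horizontal axis) in 20 gene lists, 1 point a gene. Points are red where limma called them higher, blue where lower and grey where not called, with the list's median as a bar. The sterol list (median −1.54) and the replication-dependent histones (−1.32) lie almost wholly below 0 and the metallothioneins (2.10) above it, against a median of −0.11 over all tested genes.

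The share of probes that rose depended on how bright they were. It was 22.9% among probes with a mean level under −2, 10.7% from −2 to 0, 7.44% from 0 to 2, 4.74% from 2 to 4, 2.22% from 4 to 6 and 2.19% above 6. The share that fell varied less, between 4.61% and 8.87%. Dim probes enter the test when either group lights them, so a rise from below background is favoured in the lowest class. By class of RNA, 19.5% of 992 long noncoding RNA probes and 18.4% of 1584 probes for uncharacterised intergenic loci rose, against 9.03% of 17394 protein-coding probes. The difference was present at matched level: from −2 to 0, 21.3% of long noncoding against 9.87% of protein-coding probes rose, and from 0 to 2, 13.8% against 7.05%, whereas under −2 the shares were 24.8% and 23.6%. Among 241 probes for small nuclear and nucleolar RNAs 3.32% rose and 16.2% fell. By chromosome, the share that rose ran from 7.30% on chromosome 20 to 17.5% on chromosome 18, where 3.49% of 315 probes fell, and the share that fell was highest on chromosome 17, at 12.4% of 1334. No test was made of these shares, since probes are not replicates.

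**Figure D4:**
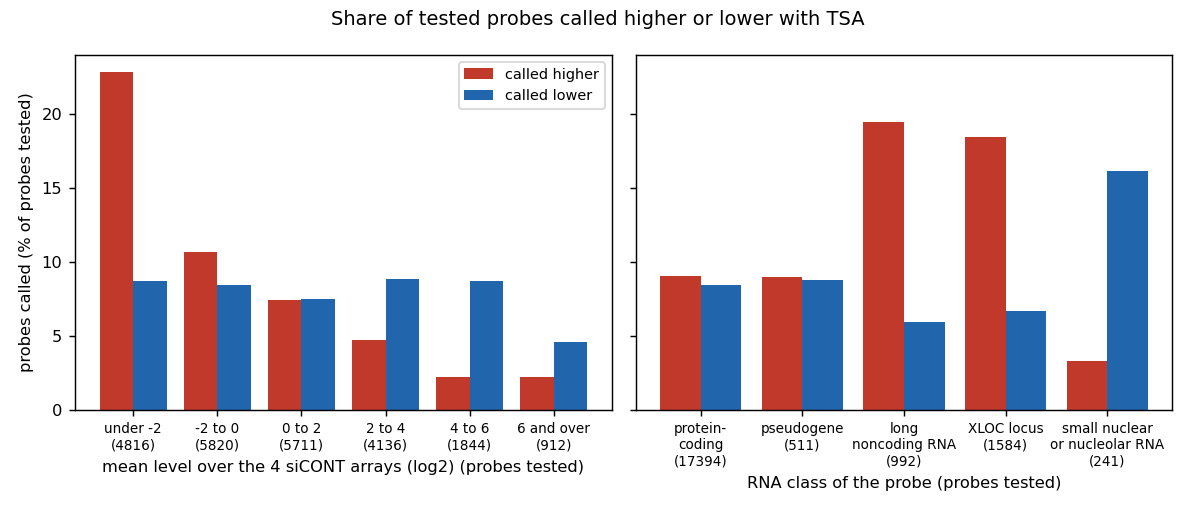
Percent of tested probes called higher and called lower with TSA, by mean level of the probe (log2 relative to the 75th percentile) and by class of RNA, as bars from 0. The share called higher falls from 22.9% in the dimmest class to 2.19% in the brightest, and is 19.5% for long noncoding against 9.03% for protein-coding probes.

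The same agent given to UHRF1-depleted cells called 4952 of 23912 probes (20.7%). For the probes that rose in siCONT cells, 2279 were tested there, 2100 had the same sign and 1412 were called higher, 11 lower. For those that fell, 1841 were tested, 1696 had the same sign and 906 were called lower, 7 higher. Of the 362 probes called with the siCONT arrays averaged, 337 were called in the same direction in depleted cells. The changes were measured on different arrays, but the calls were not independent. The depleted arrays were the only source of residual spread in the averaged fit, and they also entered the spread of the depleted comparison. A probe with little spread on these arrays was thus favoured in both, so the 337 cannot serve as a separate check of the siCONT calls.

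The difference between the 2 responses was tested as an interaction, and 1203 of 24589 probes (4.89%) were called. With the siCONT arrays averaged limma called none of 24582, although 2118 passed an unadjusted p under 0.05 and 2-fold. By list, the values of the 2 comparisons stood side by side as follows. The sterol list had 22 falls and a median of −1.42 in depleted cells against 22 and −1.54 in siCONT, with 1 called interaction, in STARD4. G2 and M phase genes had 54 falls and a median of −1.80 in depleted cells against 26 and −0.81, with 8 called interactions among 62. S phase genes had 34 falls and −1.12 against 8 and −0.51, with 10. Replication-dependent histones had 17 falls and −0.57 against 37 and −1.32, with 6. Glycolysis and hypoxia genes had 2 falls and −0.43 against 12 and −1.13, with no called interaction. Metallothioneins rose in 9 of 9 against 7 of 9, with medians of 2.55 and 2.10. As examples, INSIG1 changed by −4.44 in depleted cells (adjusted p = 0.0131), GPA33 by −4.77 (0.000361), ALPP by 6.04 (7.86e-05), CCNB1 by −2.95 (0.000274) and H2BC7 by −2.52 (0.000245).

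**Figure D5:**
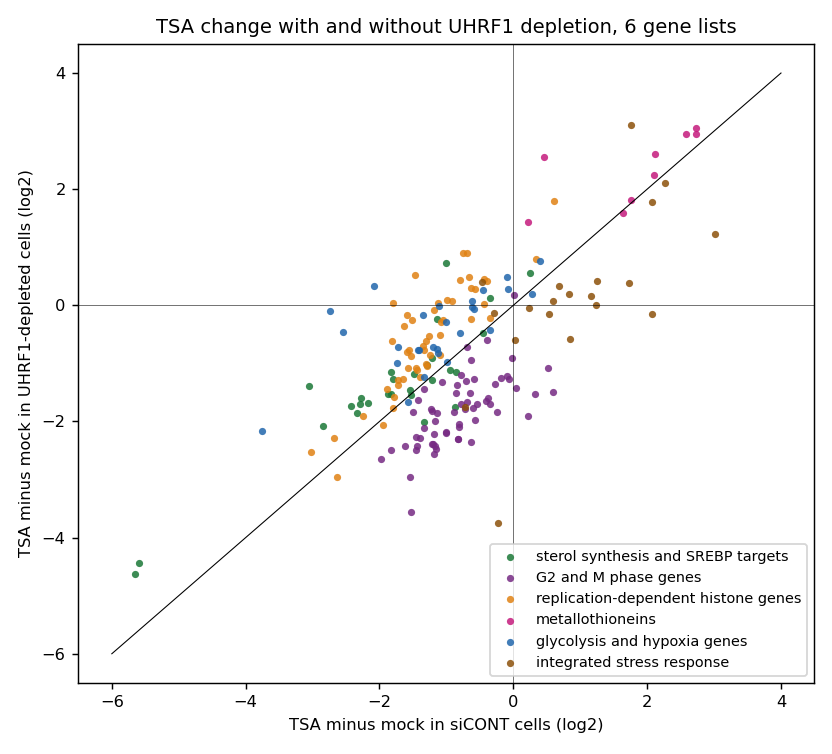
Change with TSA in siCONT cells (horizontal axis) against the change in UHRF1-depleted cells (vertical axis), both TSA minus mock on the log2 scale, for the genes of 6 lists, with the line of equal change. Sterol genes lie near the line (medians −1.54 and −1.42), G2 and M phase genes mostly below it (−0.81 and −1.80) and replication-dependent histones mostly above it (−1.32 and −0.57).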

How the data were processed

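Per the labels, arrays were scanned and quantified by the authors with Agilent Feature Extraction 10.7 (hg19 annotation in the file headers), and the methods name GeneSpring GX. The deposited scanner files hold processed signal intensity for each spot on a linear scale, background-subtracted by the authors. The deposited value table of the series held the same intensity to 3 digits (ratios between 0.995 and 1.005) and was used as an alternative only.

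Control spots and outlier flags were left out, spots of 1 probe were averaged, and log2(signal) minus each array's 75th percentile was taken over 50599 probes. Probes were named through RefSeq accessions (28357) or names and synonyms on the same chromosome (3039), and 19203 kept the file's name. Each gene is represented by its probe of highest mean level across the 8 arrays. A probe was tested if 1 or both siCONT groups had it well above background on each array, with limma 3.58.1 (lmFit and eBayes, R 4.3.3), 8 arrays in 4 group means, with Benjamini-Hochberg adjustment. A second fit averaged the siCONT arrays of each group, so that its residual spread came from the depleted arrays alone. Scripts ran in Python 3.11.15 and were tested on simulated data. The arrays' number limits the precision. A control siRNA was used throughout, so no gene was targeted on these 4 arrays.

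Named genes were the 12 largest rises and falls measured on all 4 arrays, the 8 largest called in both fits and the 8 largest bounds in each direction, the 4 largest calls of each list in each direction, UHRF1, the HDACs, CDKN1A and the study's own genes. Others are said to have been named after their values were seen. The comparison, the gene lists and the tests were chosen with earlier results of these data known. The 2 siCONT arrays of a number are paired by neither label nor values (correlation of their deviations 0.07, over 1 pair). Alternatives covered scaling, background correction, the value table, filters, the arrays in the fit, a replicate block, the methods' t-test and each array left out. Promoter sequences are from RefSeq (GRCh38.p14) and hold no position converted from hg19. Some genes that entered the fits and list counts are not reported here by name.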

Additional observations from a re-analysis of the deposited data

Results flagged for a closer look

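The genes in this section are those named above, or called in a list, whose response to TSA differed between UHRF1-depleted and siCONT cells by the interaction test of limma (adjusted p between 0.00476 and 0.0441, at least 2-fold). Each value is the change in depleted cells minus the change in siCONT cells on the log2 scale. With the siCONT arrays averaged none of the 27 was called (adjusted p between 0.189 and 0.564).

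Changes in opposite directions, both called, were seen for CDKN1C (2.80), which fell in siCONT and rose in depleted cells, and for OASL (3.82), which did the same but whose siCONT fall lost its call in every leave-one-out fit (adjusted p up to 0.137). Rises that were larger in depleted cells were those of ALPG (4.31), SPANXB1 (5.55), IGF2 (2.11), HBB (1.91), MMP9 (1.50) and DHRS2 (1.35). Rises that were smaller there, though called, were those of ABCC2 (−1.89) and VWF (−1.76). The siCONT rises of SESN2 (−2.22), CEACAM6 (−2.51), CEACAM7 (−2.51), HDAC4 (−1.57), AEN (−1.39) and IFIT5 (−1.001) had no call in depleted cells.

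Falls that were larger in depleted cells were those of TYMS (−2.04), LGALS4 (−1.50), CCNB1 (−1.40) and H2AX (−1.16). Falls that were smaller there were those of STARD4 (1.66), RAB3A (1.60) and BTG2 (1.05). The siCONT falls of SNAI1 (2.29), H2BC21 (1.85), RNF43 (1.41) and UVRAG (1.36) had no call in depleted cells.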

How the results depend on the processing

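Of the 4317 probes called, quantile normalization, other percentiles, the series' value table, no filter on dim probes, a fit to the siCONT arrays alone and the methods' t-test gave between 3811 and 4612. With normexp background correction 1708 probes were called, 866 higher and 842 lower. Averaging the siCONT arrays left 362 calls, 293 higher and 69 lower. With no fold minimum 9323 were called, 3986 higher and 5337 lower. Among probes above background on all siCONT arrays 1310 were called higher and 1608 lower, so that falls outnumbered rises there and with no fold minimum. Leaving out 1 array gave 3175 to 3396 calls, 1729 to 1835 higher and 1395 to 1561 lower. With the number of the siCONT array or siRNA as a replicate block 4362 were called, and 4534 in the siCONT arrays alone. The labels give no pairing of siCONT arrays beyond the number. In depleted cells normexp gave 2361 calls. The interaction gave 213 calls with no filter, 675 with the block, 0 by limma when averaged (2118 at an unadjusted p under 0.05 and 2-fold) and 136 to 195 with 1 array left out. Probes above background in only 1 group numbered 2332 to 2575 with 1 array left out, 1742 to 2168 with TSA only and 407 to 625 with mock only. No called named gene changed sign. Of 3068 values of named genes, 2670 kept their call, 394 lost it (144 when averaged, 155 with 1 array left out, 45 under normexp) and 4 gained one.

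The number of arrays, the single slide and the near-identical arrays of each siCONT group limit all counts. The detected-probe percentile moved the median change of all tested probes from −0.11 to 0.02. Causes of these shifts were not tested.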
